A study of Homo sapiens with 10 samples.

Results

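The oncofetal genes described here are 9 genes that are active in the embryo and fetus, are mostly silent in adult tissue, and return in many tumours. They are the noncoding RNA H19, the growth factor gene IGF2, the RNA-binding protein genes IGF2BP1, IGF2BP2, IGF2BP3 and LIN28B, the chromatin protein gene HMGA2, the fetal plasma protein gene AFP and the proteoglycan gene GPC3. They were chosen by gene symbol, 9 of 58684 symbols in the tables, and all 9 were found. Their levels were compared in 10 libraries of Caco-2, a human colon carcinoma line that grows as an enterocyte-like epithelium. The cells came from 1 stable clone, selected with puromycin, that makes dCas9-KRAB, a Cas9 that binds DNA without cutting it, joined to a repressor domain. By lentivirus the clone then received an empty guide plasmid (gCtl, n = 5), guide g1 (n = 3) or guide g2 (n = 2), both guides being directed at the long noncoding RNA LHFPL3-AS2. All groups thus share the clone and the repressor, and differ in the guide. The libraries were QuantSeq libraries, in which reads start near the 3′ end of polyadenylated RNA. Levels are given as CPM, counts scaled to library size with TMM factors, unless another scale is named.

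Each library held between 3838803 and 8730468 estimated counts, and every pair of libraries of a group differed by more than sampling noise. LHFPL3-AS2 itself was not lower in the libraries labelled g1 and g2. Its total was 57 counts over 5 gCtl libraries, 54 over 3 g1 libraries and 57 over 2 g2 libraries. The means were 2.218 ± 1.186 CPM in gCtl, 2.971 ± 0.7861 in g1 and 4.259 ± 2.711 in g2 (SD), from 4 to 44 counts per library. The pooled log2 fold change was 0.61 ± 0.42 (SE, edgeR adjusted p = 0.38), so groups are named by their labels. The paper reports depletion by qPCR with both guides, a question that these few counts cannot settle. The share of mitochondrial counts was lower in g2 (16.8% and 12.0%) than in gCtl (18.3% to 23.97%) and g1 (18.99% to 20.6%), and its part in the g2 results was not tested. The summed level of 14 intestinal epithelium markers was 2024 to 2638 CPM in gCtl, 1809 to 2477 in g1 and 2106 to 2301 in g2. Of these 14, 11 were tested, and 1 was called lower with the guides pooled (10% of all tested genes were). With g1, 1 was called lower (8.47% of all), and with g2, 2 lower and 2 higher (12% and 9.9% of all). The summed level of 16 markers of fibroblasts, endothelium, immune and neural cells was 12.2 to 25.3 CPM in gCtl and 15 to 25.3 CPM with the guides. Among these 16 genes, 3 passed the filter on low counts. With g1, NEUROD1 was called lower (5.375 ± 3.251 CPM in gCtl, 1.138 ± 0.4994 in g1) and PECAM1 higher (2.862 ± 0.5245 and 6.955 ± 2.893 CPM), and their part in the g1 results was not tested. The labels do not say that the libraries came from separate cultures, so the p-values measure only the spread between these libraries, which may be technical.

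LIN28B and the let-7 microRNAs form a switch between fetal and adult programmes: LIN28B binds let-7 precursors and blocks their maturation, and mature let-7 in turn represses LIN28B, HMGA2 and the IGF2BP genes through sites in their 3′ untranslated regions. The IGF2BP proteins bind mRNAs, IGF2 among them, and steer their stability and translation. IGF2 and H19 are imprinted neighbours that share enhancers, so that one parental copy makes the growth factor and the other the noncoding RNA, which also carries miR-675. AFP is the albumin of the fetal liver and yolk sac, and GPC3 is a cell surface heparan sulfate proteoglycan that binds growth factors. Fetal liver genes are known to be expressed in Caco-2.

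The microRNAs were not measured, but their sequence is what ties LIN28B to the other members. One let-7 sequence from RefSeq (GRCh38.p14, chr9:94175962-94175983, plus strand) is shown with bases 2 to 8, the seed, in capitals; all 9 let-7 family names in the table, miR-98 included, have this seed.
hsa-let-7a-5p: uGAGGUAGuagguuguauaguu

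The 3′ untranslated region of the transcript with the most counts was searched on the sense strand for CTACCTCA, the complement of the seed followed by A. IGF2BP1 held 3 matches, LIN28B held 2, and IGF2BP2, IGF2BP3 and HMGA2 each held 1. IGF2, AFP and GPC3 held none in this window. Among 10601 tested genes with a matched region, 4.24% held at least 1. Of regions of like length, 0.32% held at least as many as IGF2BP1 and 0.48% at least as many as LIN28B, while 4.35% did so for IGF2BP2, 2.43% for IGF2BP3 and 5.89% for HMGA2. HMGA2 also held 3 matches to CTACCTC without the final A and 3 to TACCTCA without the first base. The matches, in capitals, are shown with the 14 bases before each, for the genes whose levels are compared next, in transcripts of GENCODE v29 (GRCh38).
LIN28B site 1 (chr6:105078813-105078834, plus strand): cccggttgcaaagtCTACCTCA
LIN28B site 2 (chr6:105081422-105081443, plus strand): tttacagcaaaaggCTACCTCA
IGF2BP1 site 1 (chr17:49051062-49051083, plus strand): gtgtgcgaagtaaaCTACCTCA
IGF2BP1 site 2 (chr17:49053699-49053720, plus strand): agcagtgctagtaaCTACCTCA
IGF2BP1 site 3 (chr17:49054353-49054374, plus strand): tataaatggattaaCTACCTCA
IGF2BP2 (chr3:185644220-185644241, minus strand): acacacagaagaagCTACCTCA
IGF2BP3 (chr7:23311795-23311816, minus strand): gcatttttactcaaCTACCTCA
HMGA2 (chr12:65963299-65963320, plus strand): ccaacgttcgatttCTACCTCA

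Of the 9 genes, 8 passed the filter and were tested among 14570 genes, and H19 did not pass. A gene was called when its Benjamini-Hochberg adjusted p over all tested genes was at most 0.05 and its fold change at least 1.5. With both guides pooled against gCtl, IGF2 fell and AFP rose, 2 of 8, where 17.5% of all tested genes were called. With g1 the same pair was called, against 14% of all genes (8.47% lower, 5.53% higher). With g2, IGF2 fell and LIN28B rose, against 21.9% (12% lower, 9.9% higher). Between the guides, AFP and GPC3 were lower with g2 than with g1, against 3.99% (2.81% lower, 1.18% higher). By levels alone, libraries did not overlap for 13.7% of all genes in the pooled comparison (7.71% lower, 5.96% higher), for 24.1% with g1 (12.5% lower, 11.6% higher), for 36.2% with g2 (18.8% lower, 17.3% higher) and for 31.7% between the guides (17% lower, 14.6% higher). The count of members called is thus close to the background of these comparisons with gCtl, and the median log2 fold change of the 8 genes was -0.01 in the pooled comparison, beside 0.035 over all tested genes. The g1, g2 and pooled comparisons share the same gCtl libraries.

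**Figure D1:**
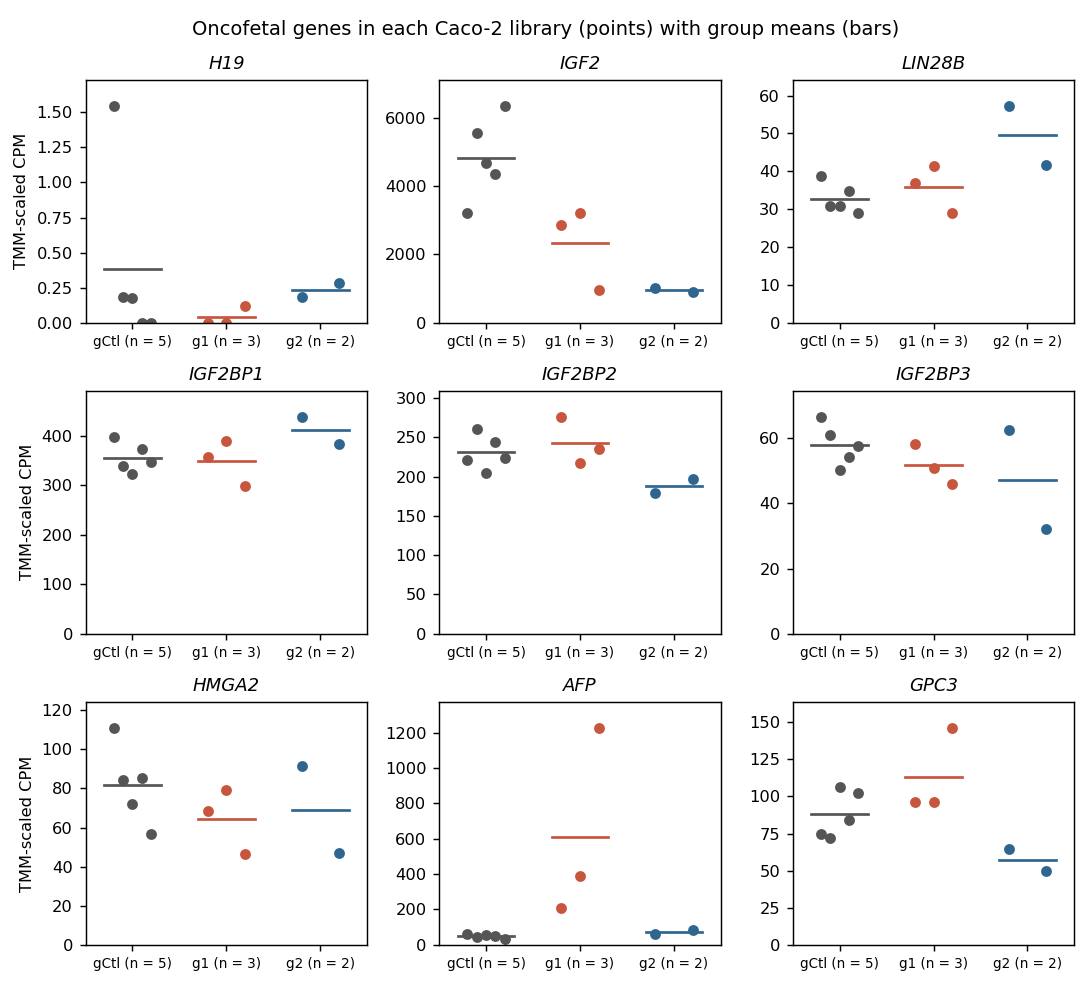
Points are the TMM-scaled CPM of each oncofetal gene in each library, horizontal bars are group means, and every vertical axis starts at 0. IGF2 lies between 3213 and 6367 CPM in gCtl and at 1015 and 908.5 CPM in g2, while AFP reaches 1226 CPM in 1 of the g1 libraries and LIN28B is highest in g2.

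Per transcript length, IGF2 (ENSG00000167244.18, chr11:2129112-2149603, minus strand) was the most abundant member in gCtl, at 1395 ± 329 TPM (SD, n = 5). IGF2BP2 followed at 94.0 ± 10.2 TPM, and then IGF2BP1 (59.7 ± 4.01), AFP (58.2 ± 23.6), IGF2BP3 (51.8 ± 7.72) and GPC3 (48.5 ± 8.64), whose gCtl libraries overlapped from each to the next. HMGA2 stood at 24.79 ± 6.003 TPM, LIN28B at 7.79 ± 0.969 and H19 at 0.616 ± 1.06, each clear of its neighbours in that order. Reads of 3′ libraries do not grow in number with transcript length, so dividing by length sets this order in part. By CPM, which is not per length, IGF2BP1 (355.9 ± 29.29) stood above IGF2BP2 (230.7 ± 21.66) in gCtl, and GPC3 (87.87 ± 15.87) and HMGA2 (81.93 ± 19.95) above IGF2BP3 (57.94 ± 6.259) and AFP (49.03 ± 12.44). On the TPM scale with g1, AFP moved to the second place, at 341 ± 270 TPM (n = 3), after IGF2 at 703 ± 386.

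IGF2, which signals through the IGF1 and insulin receptors, fell with each guide. Its level was 3213, 5567, 4673, 4375 and 6367 CPM in the gCtl libraries, 2851, 3211 and 954.1 CPM in g1, and 1015 and 908.5 CPM in g2. Every library with a guide was below every gCtl library, though the second g1 library (3211) barely so against the first gCtl library (3213), and without TMM scaling this pair changed places. Non-overlap in this direction was found for 7.71% of all tested genes. The log2 fold change was -1.44 ± 0.35 (SE, edgeR quasi-likelihood adjusted p = 0.00992), a fold of 2.71, with the guides pooled. With g1 it was -1.05 ± 0.31 (adjusted p = 0.0299), and with g2 -2.33 ± 0.39 (adjusted p = 0.000793), a fold of 5.03. The difference of g2 from g1 was -1.28 ± 0.39 (adjusted p = 0.0740) and was not called, though DESeq2 called it (-1.26, adjusted p = 0.0122) and so did edgeR without the third g1 library (-1.66, adjusted p = 0.00472). The call with g1 was lost without the third g1 library, whose 954.1 CPM resembles g2 (-0.67, adjusted p = 0.0831), and without the second gCtl library (-0.99, adjusted p = 0.0643). In bulk RNA, fewer cells that express a gene and less RNA per cell cannot be told apart.

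Nearly all IGF2 counts lay on the single transcript IGF2-003, 99.6% in gCtl, 99.1% in g1 and 97.4% in g2. The annotation holds a noncoding RNA, AC132217.4 (chr11:2129121-2129964, minus strand), inside the 3′ part of IGF2 on the same strand, so that 3′ reads of this stretch can be assigned to either. AC132217.4 was at 563 to 744 CPM in gCtl, 58.4 to 235 CPM in g1, and 156 and 16 CPM in g2, with a pooled log2 fold change of -2.52 (adjusted p = 0.00192). It held 8.13% to 18.8% of the counts of the pair in gCtl, 3.86% to 7.62% in g1 and 1.72% to 13.3% in g2. With its counts added to IGF2, an alternative chosen after seeing the data, the log2 fold change of IGF2 was -1.53 pooled, -1.15 with g1 and -2.40 with g2, and each stayed called. INS-IGF2, the readthrough gene, had no counts in any library, and the opposite-strand IGF2-AS had 2 in all.

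H19 (ENSG00000130600.15, chr11:1995176-2001470, minus strand) was at the floor of detection in this clone. It had 6, 1, 1, 0 and 0 counts in the gCtl libraries, 0, 0 and 1 in g1, and 1 and 2 in g2. The first gCtl library held 6 of the 12 counts, and 4 of the 10 libraries had none. The difference of the mean log2(RPM + 1) between the libraries with a guide and gCtl was -0.225 (exact two-sided permutation test, p = 0.595), and without the first gCtl library it was 0.022. Apart from that library none held 3 counts or more, so no fold is given, and a change was not detectable at this depth. The 2 neighbours stood far apart in level, IGF2 at 4839 ± 1199 CPM and H19 at 0.382 ± 0.658 CPM in gCtl (SD, n = 5), and their starts lie 148.1 kb apart.

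Around IGF2, 20 other genes that start within 1 Mb were tested. With the guides pooled, 3 were called lower (AC132217.4, CD81 and TNNI2) and 2 higher (DUSP8 and the pseudogene RPL26P30), where 10% of all tested genes were called lower and 7.53% higher. The calls of TNNI2, DUSP8 and RPL26P30 were each lost on leaving out any of several single libraries. CD81, a tetraspanin that partners with cell surface receptors, was at 100.7 to 129.8 CPM in gCtl, 55.4 to 79.1 in g1, and 42.0 and 21.3 in g2, with no overlap. Of all tested genes, 7.71% had both guides wholly below gCtl, and 17% had g2 wholly below g1. The log2 fold change of CD81 was -0.73 ± 0.19 with g1 and -1.83 ± 0.24 with g2 (adjusted p = 0.0181 and 0.000148), and the g1 call was lost without the second or the third g1 library. Of the list of 11p15 imprinted neighbours and CTCF, 9 of 18 genes were tested, and CD81 was called lower with the guides pooled. KCNQ1OT1, the antisense RNA of the second imprinted domain, was called lower with g2 (-0.76 ± 0.20, adjusted p = 0.0130), but not without the second g2 library (adjusted p = 0.0929). The window around each gene was chosen after values were seen.

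LIN28B (ENSG00000187772.6, chr6:104936616-105083332, plus strand) was the only member besides IGF2 that was called with g2 against gCtl. Its level was 38.7, 30.8, 30.7, 34.8 and 28.9 CPM in gCtl, 36.9, 41.3 and 28.9 in g1, and 57.3 and 41.7 in g2. Both g2 libraries were above all gCtl libraries, which held for 17.3% of all tested genes, and g1 overlapped gCtl. The log2 fold change with g2 was 0.60 ± 0.19 (adjusted p = 0.0324), a fold of 1.51, just past the minimum of 1.5. With g1 it was 0.12 ± 0.17 (adjusted p = 0.673), and g2 differed from g1 by 0.47 ± 0.21 (adjusted p = 0.222). The g2 call was lost in 10 of 22 alternatives, among them library totals alone (0.47, adjusted p = 0.0922) and leaving out the first g2 library (0.35, adjusted p = 0.247) or any gCtl library but the first (adjusted p 0.0520 to 0.0653).

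The let-7 machinery around LIN28B was measured in full, and edgeR called none of it. All 20 genes of the list, which holds LIN28A, the uridylyl transferases ZCCHC6 and ZCCHC11, DIS3L2, DICER1, DROSHA and the AGO genes, were tested, with a pooled median log2 fold change of 0.09. In the pooled comparison 0 were called by edgeR, DESeq2 or limma, and 5 had an unadjusted edgeR p under 0.05 (2 lower, 3 higher). With g1 and g2 the unadjusted counts were 5 and 4, and limma called 1 lower with g2. Of all tested genes, edgeR called 17.5% with the guides pooled, 14% with g1 and 21.9% with g2. Among 38 tested textbook let-7 targets outside the members, 3 fell and 6 rose with the guides pooled, beside 10% and 7.53% of all genes, but limma called 5 lower and 4 higher. With g1, 5 were lower and 3 higher, beside 8.47% and 5.53% of all tested genes. With g2, 4 were lower and 3 higher, beside 12% and 9.9%. The balance was thus the other way with each guide, as it was for all tested genes. MYCN, a growth-driving transcription factor, fell (-1.90 ± 0.39), as did the cell cycle phosphatase CDC25A (-1.39 ± 0.18) and the small GTPase HRAS (-1.23 ± 0.21). IRS2, an adaptor of the insulin and IGF receptors, rose (1.01 ± 0.26), as did PLAG1 (1.17 ± 0.33), a zinc finger factor known to activate the IGF2 promoter. The adjusted p of these 5 genes ran from 0.000168 to 0.0215, and that of PLAG1 passed the threshold no more without the first, the second or the fourth gCtl library. PLAG1 was at 1.215 to 2.646 CPM in gCtl and 3.324 to 4.578 CPM with the guides. It passed the filter only through the libraries where it is high, so its call lends no support to the counts of targets that rose. Genes with at least 1 let-7 seed match of 8 bases, 450 of them, had a pooled median log2 fold change of 0.02, beside -0.02 for the 10151 without one.

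The 3 IGF2BP genes and HMGA2, all with let-7 matches, were called in none of the 4 comparisons by edgeR, DESeq2 or limma, and only IGF2BP2 between the guides had an unadjusted edgeR p under 0.05. IGF2BP1 (chr17:48997412-49055650, plus strand), which shields bound mRNAs from decay, was at 397, 338.9, 323.4, 373.5 and 346.7 CPM in gCtl, 357, 390.6 and 298.8 in g1, and 438.7 and 384.1 in g2. These groups overlapped. The pooled log2 fold change was 0.07, with a 95% interval of -0.19 to 0.33 (adjusted p = 0.735). IGF2BP1 thus varied by 8.23% of its mean over the gCtl libraries, where IGF2 varied by 24.8%.

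IGF2BP2 (chr3:185643739-185825056, minus strand), the family member most widely kept in adult tissue, was at 221.3, 259.9, 204.3, 244.4 and 223.5 CPM in gCtl, 275.9, 217.7 and 234.6 in g1, and 179.5 and 197.4 in g2. Both g2 libraries lay under all others, but the log2 fold change with g2 of -0.29 ± 0.16 did not pass the test (adjusted p = 0.192). Of all tested genes, 18.8% had g2 wholly below gCtl, and 17% had g2 wholly below g1. The pooled value was -0.06, with an interval of -0.33 to 0.21.

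IGF2BP3 (chr7:23310209-23470467, minus strand), the member most confined to fetal and tumour tissue, was at 66.6, 61.0, 50.3, 54.2 and 57.7 CPM in gCtl, 58.3, 50.9 and 46.0 in g1, and 62.5 and 32.2 in g2. The 2 g2 libraries disagreed, one within the gCtl range and one under it, and the log2 fold change with g2 was -0.30 ± 0.22 (adjusted p = 0.340), 0.11 without the second g2 library and -0.84 without the first (adjusted p = 0.0113). Its counts were split between transcripts, and IGF2BP3-201, on which the let-7 match was found, held 45.6% in gCtl, 36.4% in g1 and 29.9% in g2.

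HMGA2 (chr12:65824131-65966295, plus strand), an architectural DNA-binding protein, was at 110.9, 84.5, 72.2, 85.3 and 56.6 CPM in gCtl, 68.6, 79.0 and 46.3 in g1, and 91.5 and 46.7 in g2, and the groups overlapped. The pooled log2 fold change was -0.30, with an interval of -0.72 to 0.11 (adjusted p = 0.320). For these 4 genes the intervals of the pooled comparison leave out a change of 2-fold in either direction. Of 14 tested genes that encode IGF2BP1 complex partners or known IGF2BP target mRNAs, 0 were called by edgeR with the guides pooled. Of all tested genes 17.5% were called in that comparison. Of these 14, 3 had an unadjusted edgeR p under 0.05, and DESeq2 and limma each called 1 lower. With g2, 2 of the 14 fell, where 12% of all tested genes were called lower. They were the hyaluronan receptor CD44 (-0.98 ± 0.30, adjusted p = 0.0272) and the proliferation antigen MKI67 (-0.78 ± 0.25, adjusted p = 0.0351). Leaving out the third or the fourth gCtl library or the second g2 library ended the CD44 call. Leaving out the second or the fourth gCtl library or either g2 library ended that of MKI67.

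**Figure D2:**
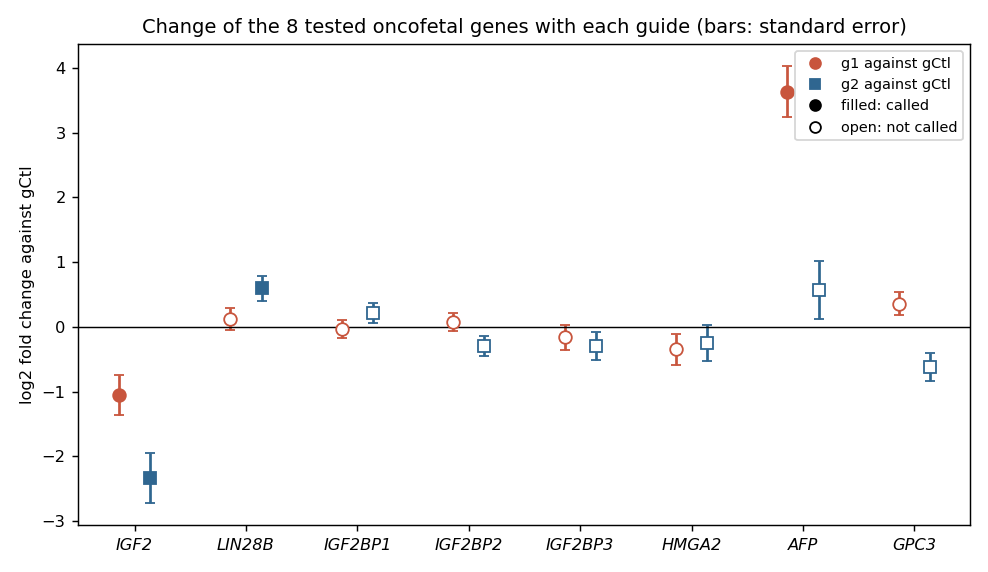
Points give the log2 fold change of each of the 8 tested oncofetal genes against gCtl, circles for g1 and squares for g2, bars give the standard error, and filled points passed the test. IGF2 is filled below 0 for both guides, AFP is filled with g1 at 3.63, LIN28B is filled with g2 at 0.60, and the IGF2BP genes and HMGA2 lie within 0.34 of 0.

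AFP (ENSG00000081051.7, chr4:73431138-73456174, plus strand) rose with g1. Its level was 62.7, 44.7, 56.9, 50.5 and 30.4 CPM in gCtl, 207.6, 387.2 and 1226 CPM in g1, and 59.8 and 85.1 CPM in g2. All g1 libraries were above all others, which held for 11.6% of all tested genes against gCtl, and the first g2 library was within the gCtl range. The log2 fold change with g1 was 3.63 ± 0.40 (adjusted p = 7.63e-05), a fold of 12.4, at rank 43 by size among 14570 genes. With g2 it was 0.57 ± 0.45 (adjusted p = 0.375), and g2 was below g1 by -3.07 ± 0.55 on the log2 scale (adjusted p = 0.00651). The third g1 library stood far above the other 2, and without it the g1 log2 fold change was 2.60 (adjusted p = 4.02e-05) and the pooled one 1.92 in place of 3.01. When the guides were compared without gCtl in the fit, the difference between them had an adjusted p of 0.0526.

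The estimated split of the AFP counts between transcripts differed between groups. Reads that overlapping transcripts share were split by estimation, and whether the transcripts themselves differed was not tested. The annotated transcript AFP-001 held 68.9% of the counts in gCtl, 97.3% in g1 and 93.3% in g2. AFP-008 held 35.2%, 18.6%, 30.5%, 27.7% and 5.54% in the gCtl libraries, 0 in each g1 library, and 8.89% and 4.08% in g2. With AFP-001 alone, an alternative also chosen after seeing the data, the log2 fold change was 4.14 with g1 (adjusted p = 2.19e-05) and 1.02 (adjusted p = 0.106) with g2, so summing the transcripts gave the smaller change.

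ALB, the adult albumin gene next to AFP, moved with g1 in the same direction. It was at 76.9, 62.5, 82.5, 63.2 and 54.0 CPM in gCtl, 96.1, 127 and 655 in g1, and 56.9 and 36.1 in g2. The g1 libraries were above all others, which held for 11.6% of all tested genes against gCtl. The log2 fold change with g1 was 2.11 ± 0.43 (adjusted p = 0.00411), most of it from the third library (0.72 without it, still called). AFP counts per ALB count were 0.562 to 0.815 in gCtl, 1.87 to 3.05 in g1, and 1.05 and 2.36 in g2, so that gCtl lay under both guides and the guides overlapped. The ratio was formed after the values were seen and was not tested.

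**Figure D3:**
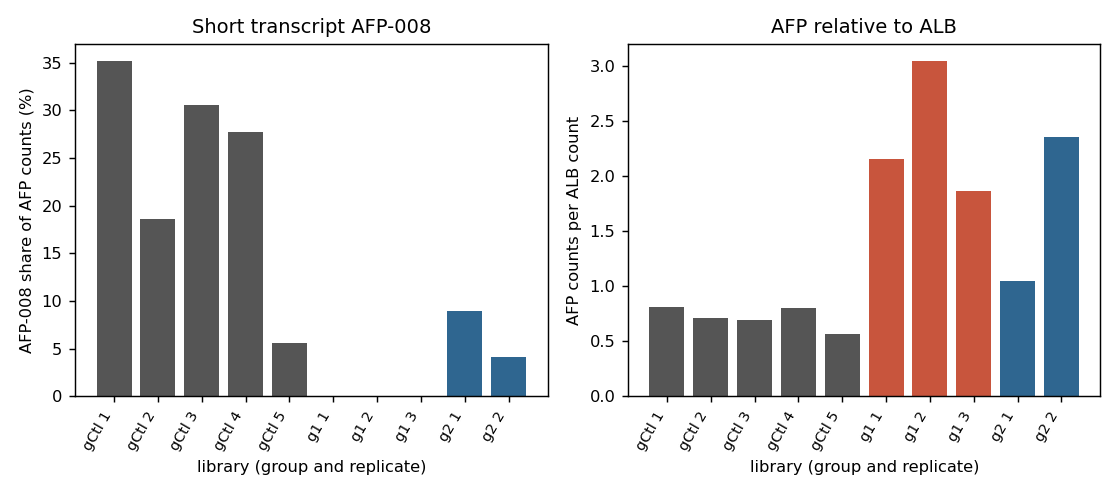
The left bars give the percent of AFP counts on the transcript AFP-008 in each library and the right bars the AFP counts per ALB count, grey for gCtl, red for g1 and blue for g2. AFP-008 is at 0 in all 3 g1 libraries and reaches 35.2% in gCtl, and all 5 gCtl ratios lie under 1 while all 5 with a guide lie above it.

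Because AFP and ALB rose together with g1, the 250 bases before their start sites in RefSeq (GRCh38.p14) are shown. Capitals mark GTTAAT, the half-site of the liver factor HNF1, searched on both strands as GTTAAT or ATTAAC. It begins at position -132 from the start of AFP and at -61 from that of ALB, and 6.88% of 35116 promoter windows of 300 bases held it. AFM, another albumin family gene of this locus, also held it, at -137, but did not pass the filter on low counts, with 14 counts in gCtl, 6 in g1 and 2 in g2.
AFP (chr4:73435971-73436220, plus strand): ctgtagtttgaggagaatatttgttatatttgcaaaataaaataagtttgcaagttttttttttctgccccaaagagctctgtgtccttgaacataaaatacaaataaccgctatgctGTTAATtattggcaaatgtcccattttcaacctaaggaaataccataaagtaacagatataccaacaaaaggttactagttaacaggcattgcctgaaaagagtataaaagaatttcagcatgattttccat
ALB (chr4:73404037-73404286, plus strand): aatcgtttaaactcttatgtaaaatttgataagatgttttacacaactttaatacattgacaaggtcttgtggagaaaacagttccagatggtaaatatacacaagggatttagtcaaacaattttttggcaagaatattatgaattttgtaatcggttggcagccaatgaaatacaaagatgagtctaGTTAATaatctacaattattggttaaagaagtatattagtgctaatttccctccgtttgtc

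Beyond ALB, other genes along the same stretch of chromosome 4 were higher. Of 9 other tested genes that start within 1 Mb of AFP, 5 were called higher with g1 by each of edgeR, DESeq2 and limma, where 5.53% of all tested genes were called higher. By the same tools 0 were called lower, and 1 had a negative change with an unadjusted edgeR p under 0.05. They were ALB, RASSF6 (0.77, adjusted p = 0.0273), CXCL1 (2.39, adjusted p = 0.000574), PF4 and CXCL3 (1.28, adjusted p = 0.00169). CXCL1 and CXCL3, which attract neutrophils, were also called higher with g2 (1.53 and 1.36), CXCL1 not without the second g2 library (adjusted p = 0.0646). The RASSF6 call was lost without the second or the fourth gCtl library, or without the first or the third g1 library. PF4, the platelet chemokine, had 0 counts in all 5 gCtl libraries, 36, 20 and 65 counts in g1, and 5 and 0 in g2, and was at least 51.2-fold higher in g1 than a floor of 3 counts over the gCtl group. The other 4 genes (COX18, ANKRD17, MTHFD2L and EREG) were not called with g1. These chemokine genes lie in 1 cluster and are not independent of each other. CXCL1 (0.8726 to 1.941 CPM in gCtl) and PF4 exceeded 3 RPM only in libraries with a guide. Both passed the filter through the libraries where they are high, so their calls lend no support to the count of 5.

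Of the list of albumin family genes and regulators of AFP, H19 and GPC3, 16 genes were tested. NR5A2, a nuclear receptor that acts on AFP and other liver genes, rose with both guides, from 15.6 ± 1.57 CPM in gCtl (SD, n = 5) to 34.3 ± 2.27 in g1 (n = 3) and 27.8 ± 0.359 in g2 (n = 2), with a pooled log2 fold change of 1.02 ± 0.15 (adjusted p = 0.000493). CEBPB, an activator of acute phase genes, was called lower (-1.27 ± 0.41, adjusted p = 0.0380). The CEBPB call was lost on leaving out any of 8 single libraries (adjusted p 0.0622 to 0.0999). GATA6, a factor of gut endoderm, rose with g2 (0.65 ± 0.17, adjusted p = 0.0105), but not without the second g2 library (adjusted p = 0.0596).

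GPC3 (ENSG00000147257.13, chrX:133535745-133985895, minus strand) separated the guides. Its level was 74.8, 71.7, 106.6, 83.8 and 102.3 CPM in gCtl, 96.3, 96.0 and 146.1 in g1, and 64.68 and 49.97 in g2. Both g2 libraries were below all others, and g1 overlapped gCtl. Of all tested genes, 18.8% had g2 wholly below gCtl, and 17% had g2 wholly below g1. With g2 the log2 fold change was -0.62 ± 0.22 and just missed the call (adjusted p = 0.0508), which 9 of 22 alternatives made, DESeq2 among them (adjusted p = 0.0345). With g1 it was 0.36 ± 0.18 (adjusted p = 0.191), and g2 was below g1 by -0.98 ± 0.24 (adjusted p = 0.0296). The call between the guides was lost without the third g1 library (-0.75, adjusted p = 0.0783) or the second g2 library (-0.80, adjusted p = 0.145).

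Other genes of the glypican, syndecan and heparan sulfate list were measured beside it. Of 19 tested, 6 fell and 1 rose with the guides pooled, where 10% of all tested genes were called lower and 7.53% higher. The median log2 fold change was -0.55, beside 0.035 over all tested genes. The tetraspanin gene CD81 is in this list and among the 6, and was also counted with the 11p15 neighbours above. The syndecan genes SDC2 and SDC1, which encode transmembrane heparan sulfate proteoglycans, fell with each guide. SDC2 went from 22.81 ± 3.003 CPM in gCtl to 10.5 ± 1.54 in g1 and 2.68 ± 1.81 in g2, and its log2 fold change with g2 was -3.12 ± 0.35 (adjusted p = 3.6e-05). SDC1 fell by 1.98 ± 0.27 on the log2 scale with g1 (adjusted p = 0.000322) and by 1.11 ± 0.30 (adjusted p = 0.0148) with g2, the latter call being lost without the second g2 library (adjusted p = 0.192). GPC1 was lower in the pooled comparison (-1.18 ± 0.30, adjusted p = 0.0128). HS3ST1, a heparan sulfate sulfotransferase, was called higher (1.37 ± 0.41, adjusted p = 0.0291), but not without the third gCtl library or any single g1 library.

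In the insulin-like growth factor list, 11 of 25 genes were tested, and with the guides pooled 2 fell and IRS2 rose, beside the same 10% and 7.53% of all tested genes. IGFBP4, which holds IGFs away from their receptors, fell (-1.51 ± 0.46, adjusted p = 0.0300), from 10.6 ± 5.72 CPM in gCtl (SD, n = 5) to 4.80 ± 1.59 in g1 and 1.784 ± 1.249 in g2. FURIN, a convertase that cuts the IGF1 receptor precursor, fell (-1.35 ± 0.40, adjusted p = 0.0267). It was at 2.838 to 4.014 CPM in gCtl, at most 2.671 in g1 and at most 1.261 in g2. FURIN thus passed the filter only through gCtl, where it is high, so its call lends no support to the count of 2. Leaving out any of 5 single libraries for IGFBP4, and any of 4 for FURIN, took the pooled adjusted p above 0.05. STC2, an inhibitor of IGFBP cleavage, fell with g2 (-1.22 ± 0.31, adjusted p = 0.0106), but not without the second g2 library (adjusted p = 0.160).

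Of imprinted growth genes elsewhere in the genome, 7 of 19 were tested. Of the 12 below the filter, 4 had no counts in any library, and the others were detected at low levels. With the guides pooled 2 fell and 0 rose by edgeR and by DESeq2, limma called 3 lower and 0 higher, and 1 gene had a positive change at an unadjusted edgeR p under 0.05. Of all tested genes 10% were called lower and 7.53% higher. MEST (-1.22 ± 0.34, adjusted p = 0.0201) and PEG10 (-0.69 ± 0.14, adjusted p = 0.00403) were those called lower with the guides pooled, MEST not without the first or the fourth gCtl library. With g2, SNRPN fell (-0.93 ± 0.31, adjusted p = 0.0412) and L3MBTL1 rose (0.82 ± 0.27, adjusted p = 0.0398), and both lost the call without the second g2 library or any of several gCtl libraries.

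Of 17 tested genes for other fetal and tumour-associated proteins, 4 fell and 3 rose with the guides pooled, where 10% of all tested genes were called lower and 7.53% higher. CEACAM6, a relative of carcinoembryonic antigen, rose from 9.93 ± 2.69 CPM in gCtl (SD, n = 5) to 34.3 ± 9.33 in g1 (n = 3) and 59.7 ± 44.5 in g2 (n = 2), with a log2 fold change of 2.18 ± 0.33 (adjusted p = 0.000552). ROR1, a fetal Wnt5a receptor, fell from 31.9 ± 5.61 to 9.25 ± 5.83 and 4.30 ± 1.31 CPM (-2.16 ± 0.34, adjusted p = 0.000808). SPINK1, a secreted trypsin inhibitor, fell from 103 ± 22.3 to 30.5 ± 12.4 and 33.0 ± 23.2 CPM (-1.72 ± 0.28, adjusted p = 0.000840). ALPP, placental alkaline phosphatase, was called higher (adjusted p = 0.0382), a call lost on leaving out any of 7 single libraries (adjusted p 0.0522 to 0.0914). DPPA4, a pluripotency-associated nuclear protein, rose with g2 (2.16 ± 0.48, adjusted p = 0.00513), but not without the first g2 library (adjusted p = 0.0717).

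Over the 10 libraries, the genes whose pattern lay nearest to that of IGF2, by the root mean square difference of log2(CPM + 1) after centring each gene on its gCtl mean, were the nucleotide receptor gene P2RY2 (0.313), FAM35BP (0.314) and BTN1A1 (0.317). For LIN28B they were MASTL (0.104), DCTN4 and AASDHPPT (both 0.109), which like LIN28B moved little. Nearest to AFP were PF4 (0.698), CPS1 (0.707), the urea cycle enzyme of liver and small intestine, and the protease inhibitor gene PI3 (0.777). CPS1 changed by 2.87 on the log2 scale with g1 and by 1.17 with g2, the latter call being lost without the second g2 library (0.82, adjusted p = 0.16).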

How the data were processed

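Caco-2 cells of 1 dCas9-KRAB clone with guide gCtl, g1 or g2 were profiled by QuantSeq 3′ RNA-seq. The authors deposited estimated counts per transcript, made with kallisto (version 42.5 per the labels) against GENCODE v24 transcripts (GRCh38), so reads shared by overlapping transcripts were split by estimation. Here estimated counts were summed per gene symbol over all biotypes, 58684 symbols, and rounded. Genes above 3 RPM in at least 20% of libraries (2 of 10) were kept. Groups were compared by edgeR 4.0.16 quasi-likelihood tests with TMM factors (0.905 to 1.04) in R 4.3.3, with both guides pooled in a 2-group fit and otherwise in a 3-group fit, and Benjamini-Hochberg adjustment over 14570 genes. The target was tested among 23163 genes with at least 10 counts. DESeq2 1.42.0, limma 3.58.1, other filters, scalings and thresholds, and leaving out each library were alternatives. H19 was compared by an exact permutation test, also in R 4.3.3. For levels per length, estimated counts were divided by transcript length to give TPM. On simulated data with 200 genes changed 3-fold, edgeR recovered 88.5% in the pooled comparison, 83% with g1, 70.5% with g2 and 65% between guides. Depth was 3838803 to 8730468 counts per library, and counting error is only part of the spread.

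The 9 genes and the gene lists were chosen with earlier results of these data known. Named were the 9 genes, LHFPL3-AS2, at most 5 called genes per list by size of the pooled change, and the 3 genes nearest in pattern. Genes within 1 Mb of a member were examined after values were seen. Sequences came from RefSeq (GRCh38.p14) and GENCODE v29 (GRCh38), of the same build as the counts, and 5 of the 9 genes had a promoter entry. A gene of the lists is not reported here.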

Additional observations from a re-analysis of the deposited data

Results flagged for a closer look

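H19 stood out within gCtl: its highest library, at 1.548 CPM, lay apart from the other 4, with a gap of 0.88 of the group's range. That is 6 counts. The cut-off used, 0.71 of the range, sets apart about 1 in 20 groups of normally distributed values. So few counts are not distributed in that way, so the rate by chance is not known here. Of the 9 genes examined so, H19 was the only one set apart.

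The following differences between the guides passed the test of the difference itself, g2 against g1 in the 3-group edgeR fit. AFP differed by -3.07 on the log2 scale (adjusted p = 0.00651) and its neighbour ALB by -2.66 (adjusted p = 0.0223), and both had their highest level in the third g1 library. Without that library the AFP difference was -2.03 and the ALB difference -1.27, and both stayed called. CPS1 differed by -1.70 (adjusted p = 0.00619). PF4, which had no counts in gCtl, differed by -3.81 (adjusted p = 0.0384), a value that depends on the prior count. PF4 passed the filter only through g1, where it is high, so its call lends no support to a difference between the guides. GPC3 differed by -0.98 (adjusted p = 0.0296), the syndecan gene SDC2 by -2.0 (adjusted p = 0.00654) and CD81 by -1.10 (adjusted p = 0.0214). GATA6 was higher with g2 by 0.87 (adjusted p = 0.0144) and DPPA4 by 2.40 (adjusted p = 0.0241). Leaving out 1 library ended the call of ALB (without the second g2 library, adjusted p = 0.122), CD81 (without the first or second g1 or the second g2 library), DPPA4 (without the first or second g1 or the first g2 library), GATA6 (without the second g1 library, adjusted p = 0.0532), PF4 and GPC3. When g1 and g2 were fitted without gCtl, only CPS1 among these 9 genes stayed called (adjusted p = 0.0378), and the others had adjusted p from 0.0526 (AFP) to 0.123 (CD81), SDC2 0.0829 among them.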

How the results depend on the processing

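No paired analysis was possible because the labels carry no replicate numbers. IGF2 was called lower with g2, and AFP higher with g1 and with the guides pooled, under every alternative run. The pooled IGF2 call was lost only in the test against a fold change of 1.5 itself (adjusted p = 0.0795). That test left 518 genes called in place of 2554 with the guides pooled, 504 of 2040 with g1, 913 of 3186 with g2 and 104 of 581 between guides, with 1 oncofetal gene in each, and edgeR's own filter left 1 with g2. Between guides, DESeq2 called 898 genes, no filter 1110, and a fit of g1 and g2 alone 121 with 0 oncofetal genes (2 in the full fit). Leaving out 1 library, all genes called ran from 1816 to 2747 pooled, 1179 (without the third g1 library) to 2385 with g1, 1548 (without the second g2 library) to 3761 with g2 and 264 to 979 between guides, and oncofetal genes called from 2 to 2, 1 to 2, 1 to 3 and 1 to 2.

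Small changes turned sign. Pooled GPC3 was -0.01 with library totals, -0.09 with limma and -0.13 in the 3-group fit, IGF2BP1 with g1 was 0.01 with upper quartile scaling, and HMGA2 between guides was -0.03 with library totals and -0.05 with limma. Over left-out libraries the log2 fold change ran from -0.2 to 0.2 for pooled GPC3, -0.15 to 0.01 for pooled IGF2BP2, -0.12 to 0.07 for IGF2BP1 and -0.03 to 0.15 for IGF2BP2 with g1, -0.84 to 0.11 for IGF2BP3 and -0.8 to 0.17 for HMGA2 with g2, and -0.68 to 0.28 for IGF2BP3 and -0.46 to 0.51 for HMGA2 between guides. The H19 difference ran from -0.318 to 0.022. The cause was not tested. Scaling moved the share of calls that were lower: with g2 it was 54.7%, 69.9% with library totals and 73.3% with limma, pooled 57% and 68.1% with limma, and between guides 70.4%, 82.3% and 84.4%. Library totals shifted the median of all genes with g2 to -0.102. Of the other named genes, leaving out 1 library ended 11 of 34 calls pooled, 11 of 29 with g1, 23 of 34 with g2 and 5 of 7 between guides, and reversed none.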
